A study of Mus musculus with 6 samples.

Results

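The deposited table of raw read counts lists 26743 mouse genes, of which 2676 carry a pseudogene biotype. Of these, 100 had at least 500 counts summed over the 6 mice and are described here as the expressed pseudogenes. They were chosen by these raw counts and by the biotype, without regard to genotype. The comparison is between testes of 3 WT mice and 3 Trf2-/- mice, each sampled at post-natal day 21. Trf2, listed as Tbpl1, encodes a relative of the TATA-binding protein that is abundant in male germ cells, and male mice without it form round spermatids that do not develop into elongated ones. RNA came from whole testis, a mixture of germ cells and somatic cells, and no cell type was isolated. A lower value in such bulk samples can come from fewer cells of a type or from less RNA per cell, and these cannot be told apart. The labels give no strain for these mice, and they do not say whether the mice were littermates.

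A pseudogene is a copy of a gene that the annotation considers unable to give the full protein of its source. Processed pseudogenes, or retrocopies, arose when a messenger RNA was copied back into the genome, and they usually lack introns. Unprocessed pseudogenes arose by duplication of a stretch of DNA and can keep introns. Many retrocopies are known to be transcribed in testis. Because a copy resembles its source, short reads from the parent transcript can also fit the pseudogene, and the share of a pseudogene's exonic sequence that is distinct is therefore given for the members described in detail below.

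All 100 pseudogenes passed the low-count filter of the test. The biotype was pseudogene for 99 of them and polymorphic pseudogene for 1, Scnm1, which codes for a splicing factor in strains with the intact allele. A single exon was annotated for 51, and 53 carried only a predicted-gene name beginning with Gm. The exonic length ran from 219 to 11105 bases. Exons of another annotated gene overlapped those of 8 members on the same strand and those of 10 on the opposite strand. RefSeq (GRCm38.p6), a later annotation, matched 84 by name and listed 46 as pseudogenes, 14 as transcribed pseudogenes, 5 as long non-coding RNAs and 19 as protein-coding genes. The label pseudogene was thus not kept for all of them, and the 19 genes that RefSeq lists as coding held 54.6% of the counts of the 100. The histone H3 gene Gm12260, which RefSeq names H3f4, held 29.3% on its own. The limit of 500 counts was applied to the sum over both genotypes, so a gene could enter through 1 genotype alone. At least 250 counts in each genotype were present for 84 of the 100, whereas 14 had under 250 in Trf2-/- and 2 had under 250 in WT. These counts are not scaled for depth, and the Trf2-/- mice had fewer counts as a group. A gene near the limit with no change can therefore also fall under 250 in Trf2-/-. Just inside the limit were Gm9812 with 500 counts, Gm11870 with 506 and Gm16167 with 507, and just outside it were Gm8116 with 497, Fam48b1 with 496 and Gm11489 with 492.

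WT mice had 21582123 to 29859347 counts on all genes, and Trf2-/- mice had 15187062 to 24530489, the lowest being mouse 3. The 100 pseudogenes took 0.231% to 0.251% of these counts in WT mice and 0.257% to 0.311% in Trf2-/- mice. Without Gm12260 the shares were 0.173% to 0.176% and 0.181% to 0.214%. These are shares of raw totals, with no scaling between mice. In Trf2-/- mouse 3, which had the highest shares, the 47219 counts of the 100 include 5500 of AY036118. After the scaling used for the test, the median log2 fold change of the 100 was -0.02. Tbpl1 itself had 295 ± 12.5 CPM (counts per 1000000 counts of the TMM-scaled library, SD, n = 3 mice) in WT and 61.0 ± 4.6 CPM in Trf2-/- testis, and each mouse therefore matched its label.

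The exons of the 100 pseudogenes were cut into all overlapping 50-base windows, the length of the reads, and each window was searched for on both strands of the genome. Of 191762 windows, 73.9% occurred once. In 30 pseudogenes every window was found once, and these held 53.0% of the counts of the 100. Under 50% of the windows were found once in 16 pseudogenes, which held 9.41% of the counts. A coding transcript of another gene aligned over at least 50% of the exonic bases of 65 pseudogenes, with identities from 65.1% to 99.5% and a median of 95.3%. The following stretches of 75 bases show how different such a pair can be. Each is the first coding stretch whose number of differences equals the median over the alignment, and capitals mark the bases that differ between pseudogene and relative. Gm12260 is shown as the most abundant member and Gm15459 as the least distinct, followed by Smarca5-ps from a group of 6 related copies and by 3 members that were lower in Trf2-/- testis. The coordinates are those of NCBIM37, and each sequence runs 5′ to 3′ on the strand of its gene.
Gm12260 (chr11:58775350-58775424, plus strand, exon 1): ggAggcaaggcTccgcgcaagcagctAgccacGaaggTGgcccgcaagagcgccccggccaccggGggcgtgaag
Hist1h3g (chr13:23627351-23627425, plus strand, exon 1): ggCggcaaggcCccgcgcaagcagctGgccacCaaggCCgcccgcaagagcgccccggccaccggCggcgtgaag
Gm15459 (chr5:5783481-5783555, minus strand, exon 1): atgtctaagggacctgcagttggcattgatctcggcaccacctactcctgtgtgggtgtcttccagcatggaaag
Hspa8 (chr9:40610006-40610080, plus strand, exon 2): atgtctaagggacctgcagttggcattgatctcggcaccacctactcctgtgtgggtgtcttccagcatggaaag
Smarca5-ps (chr4:145054465-145054539, plus strand, exon 1): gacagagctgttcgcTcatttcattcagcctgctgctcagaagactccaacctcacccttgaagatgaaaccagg
Smarca5 (chr8:83257640-83257714, minus strand, exon 3): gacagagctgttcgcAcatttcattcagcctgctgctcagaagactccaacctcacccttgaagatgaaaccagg
Gm16425 (chr8:19536211-19536285, plus strand, exon 1): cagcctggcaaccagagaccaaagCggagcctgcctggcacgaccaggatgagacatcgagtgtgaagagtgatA
Larp1 (chr11:57855986-57856060, plus strand, exon 6): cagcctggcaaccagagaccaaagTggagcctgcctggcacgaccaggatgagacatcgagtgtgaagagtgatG
H2afy3 (chr15:62050620-62050694, minus strand, exon 1): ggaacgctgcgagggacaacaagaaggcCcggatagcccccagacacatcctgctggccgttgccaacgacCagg
H2afy2 (chr10:61216221-61216295, minus strand, exon 3): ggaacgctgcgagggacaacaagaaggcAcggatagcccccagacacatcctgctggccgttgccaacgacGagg
Gm15703 (chr16:31925108-31925182, plus strand, exon 1): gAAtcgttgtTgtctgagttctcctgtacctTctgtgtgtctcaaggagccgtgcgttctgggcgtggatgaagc
Rnaseh2a (chr8:87489779-87489853, minus strand, exon 3): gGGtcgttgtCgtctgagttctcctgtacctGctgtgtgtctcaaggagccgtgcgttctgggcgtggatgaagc
The Gm12260 stretch has 7 differences from Hist1h3g, while the Gm15459 stretch has 0 differences from Hspa8, so no 50-base read from that stretch could tell the copies apart. Between these lie Smarca5-ps with 1 difference, Gm16425 with 2, H2afy3 with 2 and Gm15703 with 4.

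In Trf2-/- testis 8 pseudogenes were lower by at least 2-fold with an adjusted p under 0.05, and none was higher by that rule. They are Gm16425, Gm15703, H2afy3, Pom121l12, Gm16167, Gm13570, Gm12057 and Gm8093, that is 8 of 100 against a background of 4.3% of the 16924 tested genes, while the 0 of 100 higher stands beside a background of 0.609%. At an unadjusted p under 0.05 the count higher by at least 2-fold was also 0. The largest increase by value was that of AY036118, which did not pass the test. Without the 2-fold limit, 21 pseudogenes were lower and 6 higher, against 20.2% and 11.2% of all tested genes, and 73 did not pass. The DESeq2 Wald test gave 20 lower and 7 higher, with 8 lower and 0 higher at 2-fold. With scaling by library size alone the same counts were 16 lower and 14 higher without the 2-fold limit, and 5 lower and 1 higher with it. That scaling moved the median log2 fold change of all genes from 0.04 to 0.13, and that of the 100 from -0.02 to 0.08. Thus the balance of lower and higher calls depended on the scaling, and the median of the pseudogenes was below that of all genes by a similar amount under both. WT and Trf2-/- mice were fully separated in 31 pseudogenes with lower and 9 with higher CPM in Trf2-/-, against 26.8% and 22.3% of all genes. Among the 12673 tested genes that also had at least 500 counts, 2.60% were lower by at least 2-fold, 22.9% were lower without a fold limit and 13.5% were higher.

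**Figure D1:**
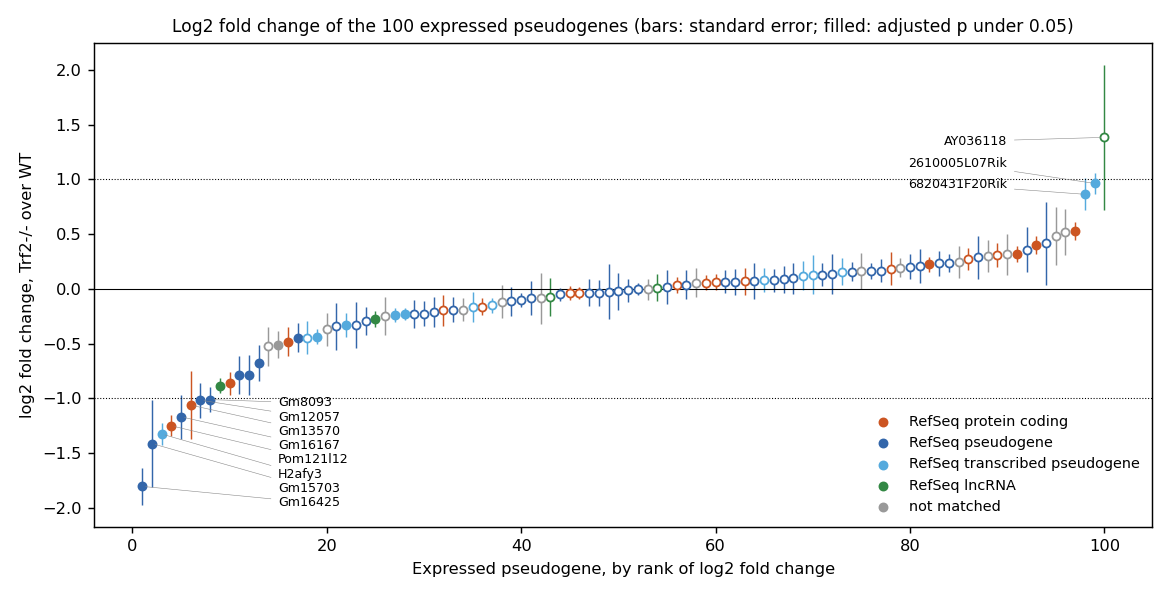
Log2 fold change of Trf2-/- over WT testis for each of the 100 expressed pseudogenes, ordered by value, with its standard error, coloured by RefSeq class and filled where the adjusted p was under 0.05. The 8 named points at the left lie at or below -1, and AY036118 at the right has the widest bar of the high values and an open symbol.

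Among the 8, 5 are single-exon or spliced copies of known genes that RefSeq also lists as pseudogenes, and H2afy3 is a further copy, listed there as a transcribed pseudogene. Gm16425 (chr8:19535904-19538583, plus strand) resembles Larp1, which encodes an RNA-binding protein that acts on messenger RNAs of the translation machinery, and 91.7% of its windows were found once. It had 15.8, 12.3 and 11.8 CPM in WT mice 1 to 3 and 3.37, 4.59 and 3.41 CPM in Trf2-/- mice 1 to 3. All Trf2-/- values lay below all WT values. The log2 fold change was -1.80 (SE, the standard error of the fit, 0.17, adjusted p = 0.000334), the largest decrease among the 100. Larp1 also fell, but by less, with 326 ± 38.5 CPM in WT and 249 ± 20.5 CPM in Trf2-/- testis and a log2 fold change of -0.39 (adjusted p = 0.00994).

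H2afy3 (chr15:62049096-62050958, minus strand) is an intronless copy from the macroH2A family of histone variants, which are characteristic of silent chromatin. RefSeq lists it as a transcribed pseudogene under the name Macroh2a3, and 93.2% of its windows were found once. WT mice had 28.9, 27 and 27.4 CPM and Trf2-/- mice 11.9, 11.8 and 9.36 CPM. The genotypes were separated, with a log2 fold change of -1.32 (SE 0.10, adjusted p = 0.000176). Its closest coding relative, H2afy2, was at a lower level and did not show the decrease, with 6.49 ± 0.20 CPM in WT and 6.63 ± 0.78 CPM in Trf2-/- testis (log2 fold change 0.02, adjusted p = 0.900). The per-mouse log2 ratio of H2afy3 to H2afy2 was lower in every Trf2-/- mouse than in every WT mouse, by 1.33 on average, the largest difference among the pairs. The exact two-sided permutation test gave p = 0.1, the smallest that 3 against 3 mice allow. H2afy3 lies within the span of the non-coding gene Pvt1 but on the other strand, and Pvt1 had a log2 change of -0.21 (adjusted p = 0.359).

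Gm16167, Gm12057 and Gm8093 are copies with more divergence, and at least 99.6% of their windows were found once. Gm16167 (chr8:88377272-88378336, minus strand) is related to Kctd7, which encodes a BTB domain protein, and had 4.77, 5.06 and 4.65 CPM in WT and 2.62, 2.23 and 1.45 CPM in Trf2-/- mice. Gm12057 (chr11:22658597-22759544, minus strand), with 6 exons, is related to Metap2, which encodes an aminopeptidase that removes the initiator methionine, and had 6.69, 6.13 and 4.99 CPM in WT and 3.09, 3.09 and 2.59 CPM in Trf2-/- mice. Gm8093 (chr9:78275314-78278612, plus strand), with 3 exons, is related to BC037034 and had 15.2, 13.4 and 12.4 CPM in WT and 7.34, 6.60 and 6.38 CPM in Trf2-/- mice. For each of the 3 the genotypes did not overlap. Log2 fold changes were -1.17 for Gm16167 (SE 0.20, adjusted p = 0.00265), -1.02 for Gm12057 (SE 0.16, adjusted p = 0.00196) and -1.01 for Gm8093 (SE 0.12, adjusted p = 0.000588). All 3 stand close to the 2-fold limit. When each mouse was left out in turn the log2 fold changes ranged from -1.36 to -0.98 for Gm16167, the last without Trf2-/- mouse 3, from -1.12 to -0.92 for Gm12057 and from -1.09 to -0.93 for Gm8093, with the adjusted p under 0.05 each time. Kctd7 was lower with a log2 fold change of -0.28 (adjusted p = 0.00467), while Metap2 at -0.14 (adjusted p = 0.0800) and BC037034 at -0.45 (adjusted p = 0.497) did not pass. BC037034 had only 0.64 ± 0.29 CPM in WT and 0.48 ± 0.27 CPM in Trf2-/- testis, with a standard error of 0.48. That level is too low to compare the response of Gm8093 with it. Gm16167 lies on the opposite strand within Phkb, which had a log2 change of 0.06.

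Gm15703 (chr16:31925075-31925954, plus strand) is an intronless copy of Rnaseh2a, which encodes the catalytic subunit of the RNase H2 complex. It had 9.97, 4.02 and 9.98 CPM in WT and 1.79, 4.42 and 2.78 CPM in Trf2-/- mice. WT mouse 2 lay below Trf2-/- mouse 2, so the genotypes overlapped, and the log2 fold change of -1.41 had a standard error of 0.40 (adjusted p = 0.0259). The call was lost without WT mouse 1, without WT mouse 3 or without Trf2-/- mouse 1, and the adjusted p without 1 mouse reached 0.0987. Rnaseh2a fell by a similar amount without overlap, from 274 ± 7.81 CPM in WT to 112 ± 36.7 CPM in Trf2-/- testis (log2 fold change -1.28, adjusted p = 0.00185). The mean level of Gm15703 in WT was 2.92% of that of Rnaseh2a, although 95.4% of its windows were found once.

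The remaining pair, Pom121l12 and Gm13570, are coding genes in RefSeq. Pom121l12 (chr11:14499243-14500319, plus strand) is related by name to a nuclear pore protein, and every window of its single exon was found once. WT mice had 30.2, 27.5 and 27.9 CPM and Trf2-/- mice 12.7, 12.8 and 10.3 CPM, without overlap, for a log2 fold change of -1.25 (SE 0.10, adjusted p = 0.000187). Gm13570 (chr2:59936439-59936771, minus strand) lies inside Baz2b on the same strand, and 66.9% of its windows were found once. It had 6.45, 7.24 and 6.52 CPM in WT and 3.97, 4.12 and 1.26 CPM in Trf2-/- mice. All Trf2-/- mice were lower, but mouse 3 stood well below the other two, and the log2 fold change of -1.06 had a standard error of 0.31 (adjusted p = 0.0304). Without any 1 of the WT mice the call was lost, with adjusted p up to 0.0969, and without Trf2-/- mouse 3 the log2 fold change was -0.73. Baz2b had a log2 change of -0.07 (adjusted p = 0.365). Of the 8 called pseudogenes, 5 had under 250 counts in Trf2-/- testis, so that they reached the limit of 500 mainly through WT. Among the 84 with at least 250 counts in each genotype, 3 were lower by at least 2-fold, or 3.57%. A limit of 250 counts in Trf2-/- itself removes genes that fell, so this share is lowered by the selection. The backgrounds of 4.3% of all tested genes and 2.60% of those with at least 500 counts had no such limit and are not comparable.

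**Figure D2:**
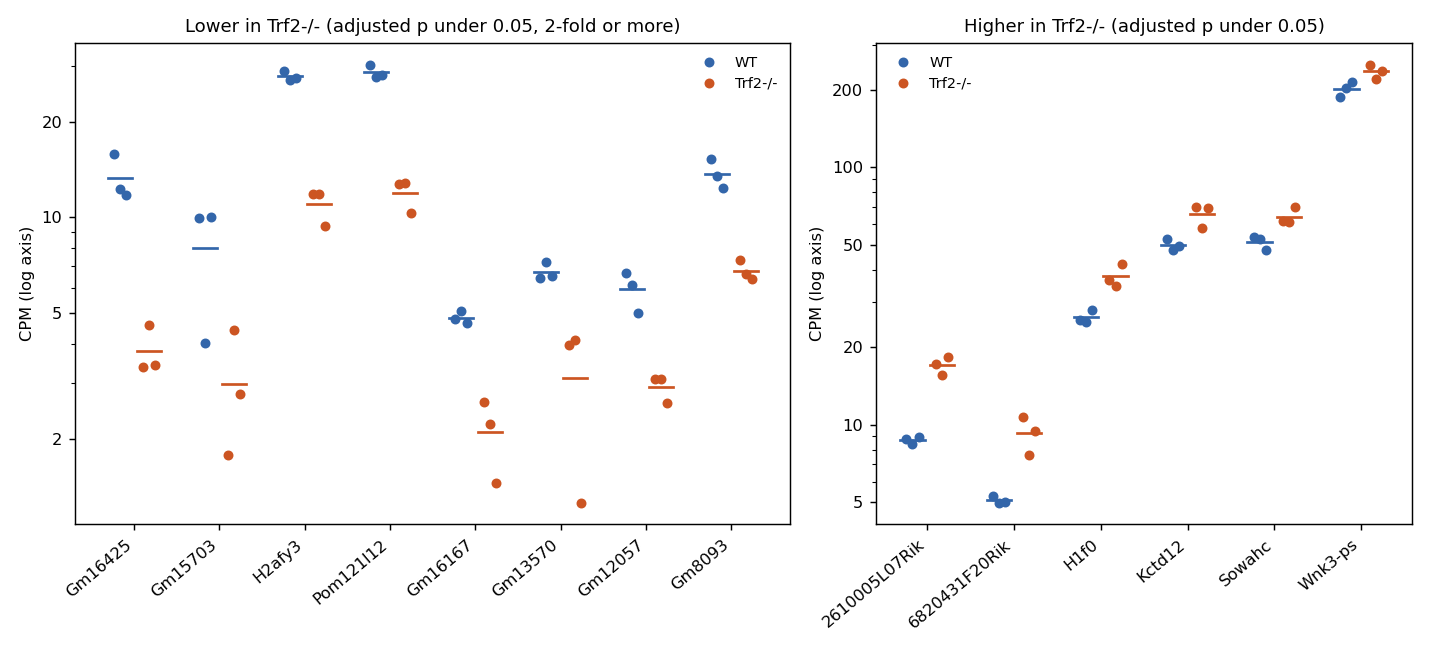
CPM in each mouse on a log axis, with the mean of each genotype as a line, for the 8 pseudogenes lower by at least 2-fold (left) and the 6 that were higher past the adjusted p (right). Gm15703 is the only 1 of these 14 in which WT and Trf2-/- mice overlap.

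A further 13 pseudogenes were lower past the adjusted p by less than 2-fold. The largest of these decreases were those of 4930465K10Rik, a long non-coding RNA in RefSeq, and of Gm15881, a coding gene in RefSeq related to Myadm, and all windows of both were found once. 4930465K10Rik had 43.6, 44.1 and 41.1 CPM in WT and 23.8, 24.7 and 21.1 CPM in Trf2-/- mice, with no overlap and a log2 fold change of -0.88 (SE 0.07, adjusted p = 0.000227). Gm15881 had 22.7, 21.6 and 23.8 CPM in WT and 13.6, 13.1 and 10.5 CPM in Trf2-/- mice, also without overlap, and a log2 fold change of -0.86 (SE 0.10, adjusted p = 0.000722). Gm15881 lies within Galntl6 on the same strand, and Galntl6 was lower too, by 1.70 on the log2 scale from 11.7 ± 1.82 to 3.48 ± 1.32 CPM (adjusted p = 0.00125). Reads of unspliced Galntl6 RNA could count toward Gm15881, and their part in the result was not tested. Gm11814, a copy of the lactate dehydrogenase gene Ldha, moved with its relative, with log2 fold changes of -0.67 for the copy (adjusted p = 0.0132) and -0.58 for Ldha. Likewise Gm15920, a copy of Ndufa12, which encodes a subunit of respiratory complex I, had -0.44 (adjusted p = 0.0348) beside -0.42 for Ndufa12. Of their windows 80.5% and 56.9% were found once. Both calls were near the limit, with adjusted p up to 0.0506 for Gm11814 without WT mouse 2 or Trf2-/- mouse 1, and up to 0.108 for Gm15920, which passed only when Trf2-/- mouse 2 was the mouse left out. Gm4835 and Gm2420 were lower together with their relatives, with -0.79 beside -0.52 for Morf4l1 and -0.78 beside -0.44 for Sfi1. Gm2420 lost the adjusted p without WT mouse 1 (adjusted p = 0.0505). Other members of the 13 differed from their relatives. Zfp389 had -0.44 beside 0.05 for Zfp113, which is only 69.1% identical to it. Gm13815 had -0.51 beside -0.04 for Rps27a.

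Past the adjusted p, 6 pseudogenes were higher in Trf2-/- testis, all by less than 2-fold. The largest changes were those of 2610005L07Rik and 6820431F20Rik, transcribed pseudogenes in RefSeq that lie on the minus strand of chromosome 8 and share the span chr8:19863337-19893124. 2610005L07Rik had 8.78, 8.39 and 8.92 CPM in WT and 17.1, 15.5 and 18.3 CPM in Trf2-/- mice, with a log2 fold change of 0.96 (SE 0.10, adjusted p = 0.000429). 6820431F20Rik had 5.30, 4.98 and 4.99 CPM in WT and 10.7, 7.63 and 9.48 CPM in Trf2-/- mice, with a log2 fold change of 0.86 (SE 0.14, adjusted p = 0.00244). The genotypes did not overlap in either gene. Only 26.6% and 15.2% of their windows were found once, so reads may be shared with other copies, and the exons of the pair do not overlap. For 6820431F20Rik the related coding gene Gm6483 had a log2 change of 0.26 (adjusted p = 0.120). Leaving out Trf2-/- mouse 2 brought 2610005L07Rik past 2-fold, at 1.01 on the log2 scale.

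The other 4 are coding genes in RefSeq, and at least 99.4% of the windows of each were found once. H1f0 encodes the linker histone H1.0, found in cells that divide slowly or have differentiated. It had 25.5, 25 and 27.8 CPM in WT and 36.4, 34.5 and 42.3 CPM in Trf2-/- mice, without overlap (log2 fold change 0.53, SE 0.09, adjusted p = 0.00213). Kctd12, an auxiliary subunit of the GABA-B receptor, had 52.6, 47.6 and 49.4 CPM in WT and 70.0, 58.1 and 69.7 CPM in Trf2-/- mice (log2 fold change 0.40, SE 0.08, adjusted p = 0.00598). Sowahc, an ankyrin repeat protein, had 53.5, 52.9 and 47.6 CPM in WT and 61.7, 61.3 and 69.8 CPM in Trf2-/- mice (log2 fold change 0.32, SE 0.07, adjusted p = 0.00974). Wnk3-ps, which RefSeq lists as the kinase gene Wnk3, a regulator of ion cotransport, had 188, 203 and 215 CPM in WT and 251, 220 and 237 CPM in Trf2-/- mice (log2 fold change 0.22, SE 0.06, adjusted p = 0.0291). In all 4 the lowest Trf2-/- mouse was above the highest WT mouse. The exons of Kctd12 lie wholly within those of Gm17446 on the opposite strand, and reads of the pair can be told apart only if the counting used the strand. For Wnk3-ps the gap was small and the call was lost without WT mouse 1, WT mouse 2 or Trf2-/- mouse 1, with adjusted p up to 0.127. By RefSeq class, 4 of the 19 coding genes were lower and 4 higher past the adjusted p, beside 20.2% and 11.2% of all tested genes. Of the 60 listed as pseudogenes or transcribed pseudogenes, 14 were lower and 2 higher, the latter being the overlapping pair on chromosome 8. The shares that were lower, 21.1% and 23.3%, lay near that of all genes.

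The most abundant member, per length as well as in total, was Gm12260 (chr11:58775314-58775724), with 1667 CPM per kilobase in WT testis against a next highest value of 82.9 CPM per kilobase for AY036118. As the sequences above show, this histone H3 gene is distinct from its relatives, and all of its windows were found once. WT mice had 597, 776 and 683 CPM and Trf2-/- mice 731, 883 and 931 CPM. WT mouse 2 exceeded Trf2-/- mouse 1, and the log2 fold change of 0.31 (SE 0.11) had an adjusted p of 0.0590. It passed without WT mouse 2 (0.41, adjusted p = 0.0369) or without Trf2-/- mouse 1 (0.39, adjusted p = 0.0302). Gm12260 lies within Trim17 on the same strand, and Trim17 was lower in Trf2-/- testis, with a log2 fold change of -0.71 (adjusted p = 0.00234).

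AY036118 (chr17:39985048-39985772, minus strand), a long non-coding RNA in RefSeq with 68.5% G and C bases, had the largest standard error of the 100. All of its windows were found once in the assembled genome, and this search cannot see copies that the assembly lacks. AY036118 had 40.1, 59.2 and 78.2 CPM in WT and 40.2, 79.5 and 348 CPM in Trf2-/- mice. The high mean of Trf2-/- rested on mouse 3, which was also the least deeply sequenced, and the log2 fold change of 1.38 had a standard error of 0.66 (adjusted p = 0.142). It passed at 2-fold when Trf2-/- mouse 1 was left out (1.82, adjusted p = 0.0374) or when every gene with at least 1 count was tested (1.39, adjusted p = 0.0397).

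Among the other members with the highest CPM, 3 were level between the genotypes. Oaz2, which encodes an antizyme that limits polyamine synthesis, had 75.9 ± 2.66 CPM in WT and 74.1 ± 2.36 CPM in Trf2-/- testis. Gm16270 had 58.9 ± 2.17 and 57.1 ± 3.21 CPM, and Gm16589 had 53.0 ± 1.42 and 53.0 ± 2.21 CPM. In each of the 3 the mice of the genotypes overlapped, with adjusted p of 0.631, 0.580 and 0.996. Log2 fold changes were -0.04, -0.05 and 0.00, each with a standard error of 0.06 or less. The windows found once made up 62.4% for Oaz2, 100% for Gm16270 and 55.2% for Gm16589.

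The next question was whether a pseudogene moved with the gene it resembles. The names give a parent for 7 pseudogenes, and for a further 57 a tested coding gene could be paired by sequence, giving 64 pairs. The difference was taken as the log2 ratio of pseudogene to relative in each mouse, averaged over Trf2-/- mice minus WT mice, with 0.5 CPM added to both. Its median was -0.15 over the 7 named parents and -0.05 over the 64 pairs. The size of the difference was under 0.25 in 41 pairs and at least 0.5 in 11. Among these 11 are Gm8093 and Rnf113a2. Their relatives BC037034 and Rnf113a1 had 0.64 and 0.68 CPM in WT, near the 0.5 CPM added.

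The sizes of the differences varied with how distinct the pseudogene is. In the 13 pairs with under 50% of windows found once the median size was 0.04, in the 24 pairs with 50% to 90% it was 0.11, and in the 27 pairs with at least 90% it was 0.36. Of the 11 large differences, 8 belonged to the last group, 1 to the middle group and 2 to the first. The first group includes most of the 6 Smarca5 copies described below. These share a single relative and can share reads, so their pairs are not independent. Among the 8 pseudogenes lower by at least 2-fold, 7 also had at least 90% of windows found once, as did 54 of the 100 in all. In the 16 pseudogenes with under 50% the count lower by at least 2-fold was 0, and at the 4.3% of all tested genes a count of 0 in so few is no result about them. Without the fold limit 1 of the 16 was lower and 2 were higher, beside 20.2% and 11.2% of all tested genes. Identity to the relative moved along with this share, from a median of 98.1% in the first group to 89.2% in the last, and the handling of reads with several matches is not given in the sources used here. The part of shared reads in these values was not tested.

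**Figure D3:**
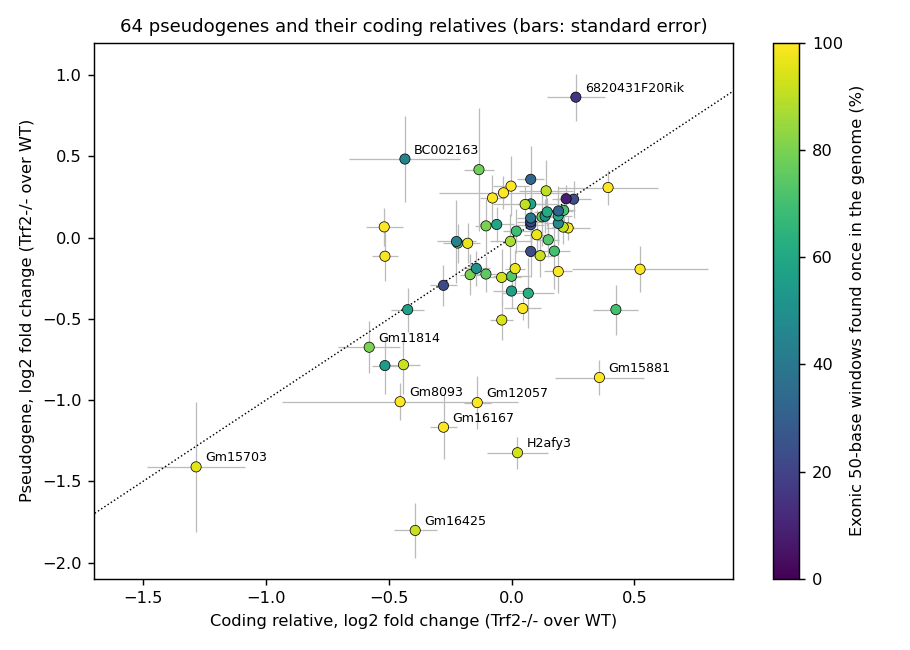
Log2 fold change of each pseudogene against that of its coding relative for 64 pairs, with standard errors and the line of equality, coloured by the share of 50-base windows found once. Gm15703 and Gm11814 lie near the line, whereas H2afy3, Gm16425 and Gm15881 lie far below it.

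**Figure D4:**
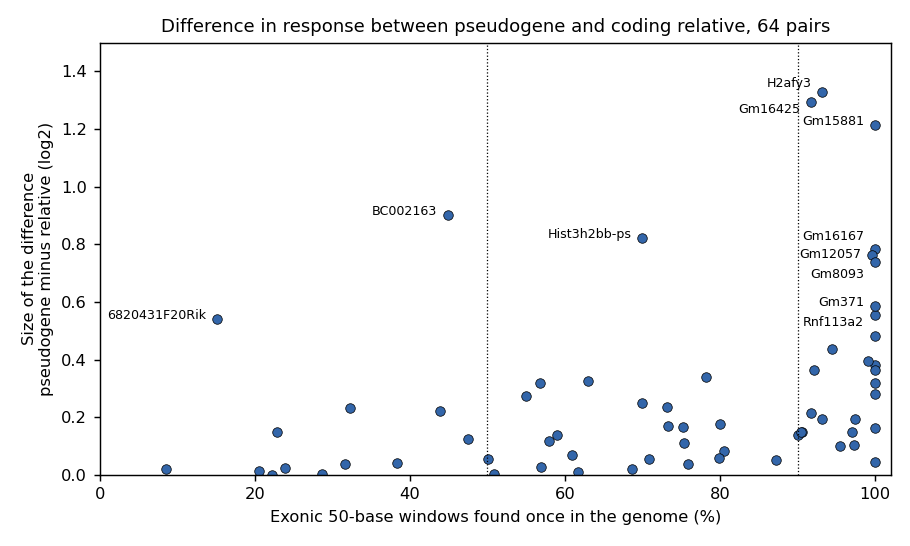
Size of the difference in log2 response between pseudogene and relative (vertical) against the share of the pseudogene's 50-base windows found once in the genome (horizontal), with dotted lines at 50% and 90%. Of the 11 pairs at 0.5 or more, 8 lie at or beyond the 90% line, 1 lies between the lines and 2 lie under 50%.

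Gm15459 (chr5:5781530-5783607, minus strand) is the least distinct member, a copy of the constitutive heat shock protein gene Hspa8 with 99.5% identity and 8.53% of windows found once. Nearly all of its exon is also overlapped by Gm17431 on the opposite strand. It had 52.2, 64.8 and 61.5 CPM in WT and 71.1, 66.1 and 73.5 CPM in Trf2-/- mice, which did not overlap, with a log2 fold change of 0.24 (SE 0.08, adjusted p = 0.0575). Hspa8 had 189 ± 10.6 CPM in WT and 220 ± 9.84 CPM in Trf2-/- testis, with 0.22 (SE 0.06, adjusted p = 0.0166). The log2 ratio of the copy to Hspa8 differed by 0.02 between genotypes (exact permutation p = 1).

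A group of 6 members aligns to Smarca5, which encodes the motor subunit of ISWI chromatin remodelling complexes, with identities of 96.6% to 98.1%. They are Smarca5-ps, Gm13231, Gm13034, Gm13140, Gm13135 and Gm13136, and all lie within 2.06 megabases of chromosome 4 (chr4:145054107-147112535). Between 20.6% and 57.9% of their windows were found once, so reads can be shared among the 6 as well as with Smarca5. Mean levels in WT ran from 3.60 CPM for Gm13135 to 10.4 CPM for Gm13034, beside 340 CPM for Smarca5. None passed the test, with log2 fold changes from -0.08 for Gm13136 to 0.36 for Gm13231, and the genotypes overlapped in all 6. Smarca5 itself had 0.08 (adjusted p = 0.302).

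Of the 7 pseudogenes with a named parent, only Pisd-ps1 and Pisd-ps2 passed the test. Pisd encodes the mitochondrial enzyme that makes phosphatidylethanolamine from phosphatidylserine. Pisd-ps1 had 71.2, 78.7 and 68.8 CPM in WT and 62.7, 62.2 and 60.6 CPM in Trf2-/- mice, a log2 fold change of -0.24 (SE 0.06, adjusted p = 0.0182). Pisd-ps2 had 19, 19.2 and 15.8 CPM in WT and 13.5, 15.8 and 13.8 CPM in Trf2-/- mice, a log2 fold change of -0.33 (SE 0.11, adjusted p = 0.0445). Of their windows 73.1% and 56.8% were found once. In Pisd-ps2 the lowest WT mouse and the highest Trf2-/- mouse were close, whereas the mice of Pisd-ps1 were apart. Pisd was level, at 24.8 ± 1.13 and 24.8 ± 1.64 CPM (adjusted p = 0.997). Both calls were lost with scaling by library size alone. Pisd-ps1 was also lost without WT mouse 2 (adjusted p = 0.0742), and Pisd-ps2 without WT mouse 1 or 2 or Trf2-/- mouse 1 or 3 (adjusted p up to 0.154).

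The copies with a ribosomal protein name, Rplp0-ps1 and Rps15a-ps8, did not pass, while their parents were slightly higher. Other members resemble ribosomal protein genes by sequence alone. Among them are Gm13815, which was lower as given above, and Gm11942 and Gm12901, which did not pass. Rplp0-ps1 had 10.1 ± 0.35 and 9.93 ± 0.90 CPM (log2 fold change -0.01) beside 229 ± 3.39 and 254 ± 10.3 CPM for Rplp0 (0.15, adjusted p = 0.0356). Rps15a-ps8 had 8.55 ± 0.63 and 8.93 ± 0.40 CPM (0.06) beside 147 ± 6.09 and 170 ± 1.12 CPM for Rps15a (0.21, adjusted p = 0.00851). The windows found once were 73.3% for Rplp0-ps1 and 90.5% for Rps15a-ps8. In both pairs the ratio of copy to parent was lower in every Trf2-/- mouse, by 0.17 and 0.15 on the log2 scale (exact permutation p = 0.1 for each). Pcna-ps2 had 0.16 beside 0.14 for Pcna, the DNA polymerase clamp, and neither passed. Mettl4-ps1 had -0.03 (adjusted p = 0.851) beside -0.18 for Mettl4, an adenine methyltransferase (adjusted p = 0.0285).

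The copies with a translation factor name did not pass either. Eif5al3-ps had 10.1 ± 0.93 and 8.57 ± 1.1 CPM (log2 fold change -0.23, adjusted p = 0.203) beside -0.17 for Eif5a (adjusted p = 0.0136). Eif3s6-ps2 had 3.55, 3.41 and 2.78 CPM in WT and 3.17, 7.46 and 2.21 CPM in Trf2-/- mice. The Trf2-/- mice spanned the WT range on both sides, with mouse 2 highest, and the log2 fold change was 0.42 with a standard error of 0.38. Without that mouse the value turned to -0.26 (adjusted p = 0.415). The windows found once were 79.9% for Eif5al3-ps and 78.2% for Eif3s6-ps2. Among the 3 members with a histone symbol, which leave out Gm12260, Hist3h2bb-ps stood between H2afy3 and H1f0. It had 6.83 ± 0.56 and 5.08 ± 0.89 CPM and a log2 fold change of -0.44 (adjusted p = 0.0561). Its relative Hist3h2ba was higher, by 0.42 on the log2 scale.

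Some markers of cell types also passed the adjusted p, counted here without a fold limit. By that rule 20.2% of all tested genes were lower and 11.2% higher. Of 9 tested round spermatid markers 7, among them Acrv1, Acr and Tssk1, were lower, and their summed level was 79.28 to 83.29 CPM in WT mice and 36.41 to 52.14 CPM in Trf2-/- mice. Both tested elongating spermatid markers, Odf1 and Gapdhs, were lower, and the summed level of that list was at most 3.83 CPM in WT and 0.5575 CPM in Trf2-/- mice. Spermatocyte markers went in both directions. Of 10, 3 were lower (Ldhc, Pgk2 and Piwil1) and 3 higher (Sycp1, Sycp3 and Hormad1). Their summed level was 5915 to 6131 CPM in WT mice and 4748 to 5291 CPM in Trf2-/- mice. Ldhc, the most abundant, had mean values of 2279 CPM in WT and 1407 CPM in Trf2-/- testis. Of 6 tested macrophage markers 3 were higher, with sums of 143.9 to 167.5 CPM in WT and 162.2 to 323.0 CPM in Trf2-/- testis, and 3 of 6 Sertoli cell markers were higher. In each remaining list 1 marker was higher and none lower, namely Kit of 6 for spermatogonia, Hsd3b1 of 6 for Leydig cells and Des of 4 for peritubular cells. At the 11.2% of all tested genes, 1 in so few is no result about these cell types. No listed marker present in the table was at 0 in all mice. The part of these cell types in the changes of the pseudogenes was not tested.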

How the data were processed

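Total RNA from testes of 3 WT and 3 Trf2-/- mice (3 biological replicates per genotype, by the study's methods) was depleted of ribosomal RNA and sequenced as stranded single-end 50-base reads. The submitters' processing notes name CASAVA 1.8.2, TopHat2 2.0.10, Bowtie2 2.1.0, HTSeq 0.5.4p3 and DESeq2 1.0.19 with build mm9. The deposited values used here are the raw counts per gene, made by the authors without normalization. The deposited normalized columns were not used. The strand setting of the counting, the treatment of reads with several matches and the annotation release are not given in the sources used here. Reads from overlapping genes, and from a gene and its antisense partner, can therefore not be told apart.

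Counts of 16924 genes kept by filterByExpr were tested with edgeR 4.0.16 (R 4.3.3; TMM, glmQLFit, glmQLFTest) with Benjamini-Hochberg adjustment over all of them, and printed p-values are adjusted unless named as permutation. CPM use TMM-scaled libraries. A call needed an adjusted p under 0.05 and at least 2-fold. A count of 0 allows at most 3 counts, or 0.105 to 0.190 CPM by mouse, covering counting error only. Coding relatives were found with BLAST 2.17.0 against the GENCODE coding transcripts of NCBIM37, whose gene positions equal those of the table for 98 of the 100 pseudogenes. In simulated counts for this comparison over 16924 genes, edgeR recovered 99% and DESeq2 1.42.0 96% of 200 genes changed by 1.5 on the log2 scale. No pair of mice differed by less than sampling noise.

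The members and gene lists were chosen with earlier results of these data known. Named are the called members, the 5 largest decreases and increases past the adjusted p, the 10 highest by CPM, 3 on each side of the count limit, 2 per family by CPM, the 3 least and 3 most distinct by windows, and their relatives. Gm15881, Gm11814, Gm15920, Zfp389, Gm13815, Hist3h2bb-ps, 4930465K10Rik, Wnk3-ps as an increase, the Smarca5 group, Pisd-ps2, Pcna-ps2, Mettl4-ps1 and the host genes were added after their values were seen. So were Rnf113a2, Gm4835, Gm2420, Gm11942 and Gm12901. Alternatives were other scalings, DESeq2, other filters, each mouse left out, the replicate number as a block, an adjusted p of 0.01 and other pseudocounts.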

Additional observations from a re-analysis of the deposited data

How the results depend on the processing

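The counts of 8 lower and 0 higher at 2-fold, 21 lower and 6 higher without a fold limit, and the median log2 fold change of -0.02, stayed within 1.5 times or within the spread between mice under DESeq2's size factors, the DESeq2 Wald test and at least 10 counts in every mouse. With library size alone the counts were 5 lower and 1 higher at 2-fold and 14 higher without it, and the median was 0.0758, since all genes shifted upward. With every gene of at least 1 count tested, 1 was higher at 2-fold. At an adjusted p of 0.01, 10 were lower. Leaving out each mouse gave 4 to 8 lower and 0 to 1 higher at 2-fold, with 4 lower without WT mouse 1 or Trf2-/- mouse 3, 13 to 20 lower and 6 to 8 higher without a fold limit, 13 being reached without WT mouse 1 or WT mouse 2, and medians of -0.0436 to -0.0007. Without 1 mouse the pair difference over named parents ranged from -0.18 to -0.12. It was -0.15 with 0.1 CPM added, -0.16 with 2 CPM added and, over all 64 pairs, a choice made after seeing the data, -0.0534. The causes of these shifts other than the scaling were not tested.

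The replicate numbers are not stated to pair the mice, and deviations of same-numbered mice correlated at -0.10, -0.03 and -0.10. With the replicate number as a block, 7 were lower and 0 higher at 2-fold, 18 lower and 6 higher without a fold limit, and the median was -0.01. The block ended the calls of Gm15703 (adjusted p = 0.0717), Gm15920 (0.0708), Wnk3-ps (0.0531) and 2410075B13Rik (0.0544), and Gm12260 passed (0.0126). Over all 100 members and 12 alternative fits, 1133 of 1200 values stayed on the same side of the adjusted p, 42 lost it, from 12 members, and 25 gained it, in 13. No value past it changed sign, while 50 of the others did. With 15187062 to 29859347 counts per mouse, the 50 members under 10 CPM had standard errors of 0.10 to 0.40, with a median of 0.15.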
